A study of Homo sapiens with 6 samples.

Results

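The 10 genes described here are 3 aldo-keto reductases (AKR1B10, AKR1C1 and AKR1C3) and 7 other genes known as targets of the transcription factor NRF2 (GCLM, GCLC, TXNRD1, SRXN1, NQO1, HMOX1 and FTL), of 19775 genes measured. They were taken by symbol, with every probe set that the platform annotation gives to that symbol alone, which made 22 probe sets. The genes were chosen by name with knowledge of these same values, their ratios to the 50K array, so the values are given as a description. No p-value is printed for them, and a member slope said to lie past the threshold describes the fit over all genes and is no test of the members. All samples were cultures of MCF10A, a human mammary epithelial cell line that is established and does not form tumours, and they differed only in how many cells were plated. The numbers per 35 mm dish were 50K, 100K, 200K, 400K, 600K and 800K, with harvest 24 h later. The medium was the same throughout and contained horse serum at 5%, insulin at 10 μg/ml, cholera toxin at 100 ng/ml, hydrocortisone at 0.5 μg/ml, EGF at 20 ng/ml and gentamicin. A single Affymetrix HG-U133 Plus 2 array was run per density. There are therefore no replicates, no difference between densities has a replicate check, and precision is limited by having only 6 arrays. The deposited value of a probe set is its ratio to the 50K array, which is 1 at 50K by construction and carries no absolute level, so the presence of the line's defining markers could not be checked. In such bulk RNA, fewer cells of a type and less RNA per cell cannot be told apart. Where 5 ratios are listed in a row they belong to 100K, 200K, 400K, 600K and 800K in that order.

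NRF2, the product of NFE2L2, is held at a low level by KEAP1, an adaptor that hands it to a CUL3 ubiquitin ligase for destruction. Oxidants and electrophiles modify KEAP1, after which NRF2 accumulates, pairs with small MAF proteins and binds antioxidant response elements in the DNA of its target genes, where the repressor BACH1 competes with it. The targets make and use glutathione and thioredoxin, detoxify quinones, break down heme and store iron. Aldo-keto reductases use NADPH to reduce aldehydes and ketones, among them retinal, lipid aldehydes, prostaglandins and steroids, and the AKR1C enzymes are very alike in sequence.

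The stretches upstream of the transcription start were read for members that were higher and for members that were lower in dense culture, to show what a search for the antioxidant response element core finds in them. RefSeq promoter sequences (GRCh38.p14) were found for 8 of the 10 members, with 10 starts among them. The core was searched on both strands as TGACNNNGC, and the related AP-1 motif, whose first bases it shares, as TGANTCA. In the 250 bases before the start, TGACNNNGC was present at 3 of the 10 starts, which belong to 2 genes, and TGANTCA at 0. Of all 35116 such windows, 10.91% and 6.57% hold them. Sequence farther from the start was not searched, so a window without a match does not show that the gene lacks the element. The matches were in GCLM and at both starts of TXNRD1, shown here with the match in capitals (GCLM at chr1:93909431-93909680, minus strand; TXNRD1 at chr12:104215529-104215778 and chr12:104286782-104287031, plus strand).
GCLM: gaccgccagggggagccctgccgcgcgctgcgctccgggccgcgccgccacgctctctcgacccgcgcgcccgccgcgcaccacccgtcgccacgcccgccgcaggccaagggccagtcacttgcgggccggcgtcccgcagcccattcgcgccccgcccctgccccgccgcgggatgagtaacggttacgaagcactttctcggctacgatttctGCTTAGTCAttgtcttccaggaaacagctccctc
TXNRD1, first start: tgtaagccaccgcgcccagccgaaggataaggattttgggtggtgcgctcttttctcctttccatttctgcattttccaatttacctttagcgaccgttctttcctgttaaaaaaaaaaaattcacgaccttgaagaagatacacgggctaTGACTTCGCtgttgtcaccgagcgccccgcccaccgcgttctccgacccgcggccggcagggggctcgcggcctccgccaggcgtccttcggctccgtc
TXNRD1, second start: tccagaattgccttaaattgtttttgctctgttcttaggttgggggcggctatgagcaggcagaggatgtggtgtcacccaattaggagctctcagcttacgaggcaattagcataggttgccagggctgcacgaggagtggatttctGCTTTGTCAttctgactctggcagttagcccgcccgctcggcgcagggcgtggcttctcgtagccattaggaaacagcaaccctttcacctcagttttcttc

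The AKR1C windows are shown because AKR1C1 and AKR1C3 moved in the same direction and their genes are near-copies. The 250 bases before the start of AKR1C1 (chr10:4963165-4963414, plus strand) matched those before the first start of AKR1C3 (chr10:5048531-5048780, plus strand) at 189 of 239 aligned bases, or 79.1%. The longest run shared by the AKR1C1 window and both AKR1C3 windows, in capitals here, has 12 bases and lies at position −77 from the start of AKR1C1 and −73 from the first start of AKR1C3. It was picked out after the windows had been compared, and it occurs on either strand in 5 of the 35116 windows, of which 3 are the AKR1C1 and AKR1C3 windows it was taken from. The match is a description of these letters and not of a binding site.
AKR1C1: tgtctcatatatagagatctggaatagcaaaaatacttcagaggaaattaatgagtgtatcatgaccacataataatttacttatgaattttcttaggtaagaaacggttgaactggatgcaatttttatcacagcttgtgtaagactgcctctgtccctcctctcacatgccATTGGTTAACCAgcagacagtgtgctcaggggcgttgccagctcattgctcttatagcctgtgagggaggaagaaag
AKR1C3, first start: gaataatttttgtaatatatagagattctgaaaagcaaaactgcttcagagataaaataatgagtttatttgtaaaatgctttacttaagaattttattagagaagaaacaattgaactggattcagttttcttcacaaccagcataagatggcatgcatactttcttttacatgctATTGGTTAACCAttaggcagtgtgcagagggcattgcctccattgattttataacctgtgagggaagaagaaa

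Some signs of array and RNA quality moved with the 50K array or with density. The 3 probe sets for 18S ribosomal RNA were lower on every other array than on the 50K array, by a mean log2 difference between −0.75 and −0.63, and the poly-A spike-ins by between −0.41 and −0.18. The log2 difference between the 3′ and 5′ control probe sets of GAPDH, relative to 50K, lay between −0.05 and 0.07, and that of ACTB was −0.02 at 100K and 0.30 at 800K. Of the marker lists, 1 of 6 fibroblast, 2 of 4 leukocyte, 2 of 4 endothelial and 0 of 4 adipocyte genes had a slope on density past the threshold used below, and all 5 of those slopes were positive. The fibroblast gene DCN and the endothelial gene KDR lost their calls without any array but 400K (adjusted p up to 0.228 and 0.156), and the endothelial gene PECAM1 without any array but 200K or 400K (up to 0.100). Without the _x_at and _s_at probe sets the fitted log2 change of DCN over the range was −0.0084 against 0.30. Of 5 basal mammary epithelial genes, which mark the line itself, KRT14, CDH1 and KRT5 rose, to 3.01-fold, 1.74-fold and 1.42-fold at 800K, and ITGA6 fell, to 0.717, a call lost without any array but 200K (adjusted p up to 0.250). LAPTM5 and CD14 were the 2 leukocyte genes, at 14.0-fold and 5.66-fold the 50K value at 800K, while the defining leukocyte gene PTPRC had a ratio of 1.02 there. The part of these differences in the results was not tested. Because 50K is the denominator of every ratio, the change from 100K is given beside that from 50K below.

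All 3 aldo-keto reductases had higher ratios at 800K than at 50K, whereas GCLM, TXNRD1 and SRXN1 had lower ones, and GCLC went with the reductases. Slopes are log2 units per doubling of the cells plated, from a line through the 6 arrays fitted with limma over all 19775 genes. Their errors are standard errors (SE) of that fit. For single probe sets the limma fit was over all single-symbol probe sets. For differences between 2 genes or 2 groups the line was fitted by ordinary least squares. The slopes of 9 of the 10 members lay past an adjusted p of 0.05 over all genes, 4 upward and 5 downward. Of all genes, 21.3% lay past it, 8.93% upward and 12.4% downward, which was 4220 genes with all arrays, 2447 without 600K and 2388 without 800K. Since the members were listed with these values known, nothing is read from that count. At 800K, 2 members were 2-fold or more higher than at 50K and 1 was 2-fold or more lower, against 2.25% and 2.69% of all genes.

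**Figure D1:**
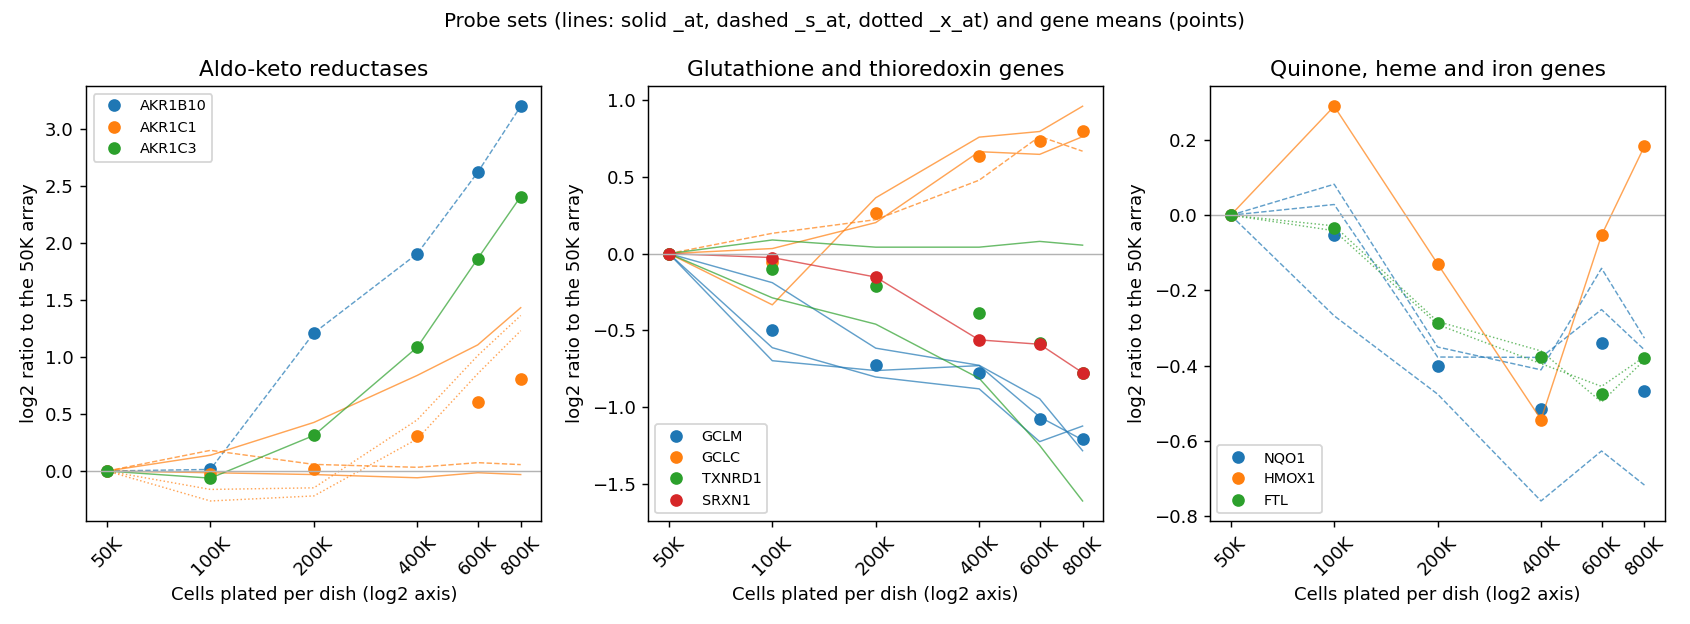
The log2 ratio to the 50K array (vertical axis) is plotted against the cells plated per dish (log2 axis) for the 10 members in 3 panels; lines are single probe sets (solid, dashed and dotted for identifiers ending in _at, _s_at and _x_at) and points are gene means. AKR1B10 and AKR1C3 are higher at each density from 200K onward, GCLC lies above 0 from 200K while GCLM, TXNRD1 and SRXN1 lie below it, and HMOX1 has its lowest value at 400K.

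AKR1B10, a reductase of retinal and of lipid aldehydes, changed most. Its single probe set, whose identifier ends in _s_at, had ratios of 1.01, 2.32, 3.76, 6.17 and 9.22 from 100K to 800K. AKR1B10 had no unmarked set, and the related gene AKR1B15 had no value of its own. Whether related transcripts add to the signal of this set could not be checked. The 100K array was close to the 50K array, and each later density was higher than the one before it. The slope was 0.83 ± 0.08 (SE, 6 arrays), the 23rd highest of all genes. The step from 100K to 200K was the largest, at 1.20 log2 units, and the later 3 steps lay between 0.58 and 0.72. From 100K to 800K the gene was 9.13-fold higher.

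AKR1C3, which reduces ketosteroids at position C17 and also prostaglandins, had its largest steps at higher densities. Its probe set gave ratios of 0.958, 1.24, 2.13, 3.65 and 5.32 from 100K to 800K. The steps from 200K to 400K and from 400K to 600K were the largest, at 0.78 log2 units each. The slope was 0.62 ± 0.10, ranked at 70 among all genes from the highest. At 800K it was 5.55-fold higher than at 100K.

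AKR1C1, known for the inactivation of progesterone, was represented by 5 probe sets that did not behave alike. Of the 2 sets with an unmarked identifier, 1 had ratios of 1.10, 1.34, 1.79, 2.16 and 2.70 from 100K to 800K. The set annotated with the RefSeq mRNA, which ends in _x_at and may cross-hybridise with related genes, had 0.833, 0.859, 1.22, 1.81 and 2.35 at the same densities. These sets were above 1 from 400K, as was the other _x_at set, at 2.58 at 800K, whereas the other unmarked set and the _s_at set were flat, with ratios of 0.979 and 1.04 at 800K. The gene mean, which includes the flat sets, had a slope of 0.20 ± 0.04 and a ratio of 1.76 at 800K. It lay past the threshold with all 6 arrays but not without the 100K, 600K or 800K array, where the fitted log2 change from 50K to 800K was 0.78, 0.78 and 0.65 against 0.81 with all of them. Without the 50K array the change was 1.13.

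AKR1C2 is nearly identical to AKR1C1, so the signal of their probe sets cannot be assigned to either with certainty. Its gene mean had ratios of 0.969, 1.02, 1.24, 1.67 and 2.40 from 100K to 800K and its slope was 0.29 ± 0.07 (limma adjusted p = 0.0407). The call was lost without the 100K, 600K or 800K array (adjusted p up to 0.116), and also without the _x_at and _s_at sets, where the fitted log2 change over the range was 0.48 against 1.14. The unmarked set that then remains was at 1.08 at 600K and 1.80 at 800K. It was the only gene to pass among 9 measured of 12 other aldo-keto reductases, none of which fell, and the median slope of those 9 was 0.05 against 0.00 over all genes.

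The enzymes of glutathione synthesis did not share a direction. GCLC and GCLM encode the catalytic and the modifier subunit of glutamate-cysteine ligase, the rate-limiting enzyme of that pathway. GCLC, as the mean of 3 probe sets, had ratios of 0.962, 1.20, 1.55, 1.66 and 1.74 from 100K to 800K, with a slope of 0.23 ± 0.03. GCLM, also with 3 probe sets, had ratios of 0.707, 0.604, 0.583, 0.474 and 0.433 from 100K to 800K, with a slope of −0.27 ± 0.03. All 3 GCLC sets were above 1 from 200K and all 3 GCLM sets were below 1 from 100K, so the probe sets of the 2 genes did not overlap at 200K or above. Their slopes lay between 0.19 and 0.30 for GCLC and between −0.30 and −0.25 for GCLM.

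The ratio of GCLC to GCLM, set to 1 at 50K, was 1.36, 1.99, 2.66, 3.51 and 4.01 from 100K to 800K. It grew at every step, with a slope of 0.50 ± 0.01 log2 units per doubling by ordinary least squares. This error is computed otherwise than the limma errors of the 2 genes and is not compared with them. The largest step of GCLM was the first, −0.50 log2 units from 50K to 100K, while the first step of GCLC was −0.06. From 100K to 800K GCLC was 1.81-fold higher and GCLM 1.63-fold lower. The ratio compares changes and not amounts, since the files hold no level for either subunit.

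TXNRD1, the cytosolic thioredoxin reductase, was lower at each higher density in the probe set annotated with its RefSeq mRNA. That set had ratios of 0.819, 0.727, 0.570, 0.421 and 0.327 from 100K to 800K, or 3.06-fold lower at 800K than at 50K, with a slope of −0.38 ± 0.05. The second set was flat, between 1 and 1.06 on all 6 arrays, and it reduced the slope of the gene mean to −0.18 ± 0.02.

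SRXN1, the sulfiredoxin that repairs over-oxidised peroxiredoxins, also had its lowest value in the densest culture. Its single probe set had ratios of 0.982, 0.899, 0.677, 0.664 and 0.584 from 100K to 800K. The largest step was from 200K to 400K, at −0.41 log2 units, and the slope was −0.20 ± 0.03. At 800K, SRXN1 was 1.68-fold lower than at 100K, a change of −0.75 log2 units. The TXNRD1 gene mean, which includes its flat set, was 1.60-fold lower over that range. The RefSeq mRNA set of TXNRD1 alone changed by −1.32 log2 units.

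Set against the mean of the glutathione and thioredoxin genes, the mean of the aldo-keto reductases diverged from 200K onward. Single genes of the groups overlapped. AKR1C1 and GCLC were at 1.01 and 1.20 at 200K and at 1.76 and 1.74 at 800K, with slopes of 0.20 and 0.23. The mean log2 ratio of the 3 reductases was −0.02, 0.51, 1.10, 1.70 and 2.14 from 100K to 800K. That of GCLM, GCLC, TXNRD1 and SRXN1 was −0.17, −0.21, −0.27, −0.38 and −0.49 at the same densities. The difference between the groups was 0.15 log2 units at 100K and 2.63 at 800K, a 6.21-fold ratio. Its slope was 0.66 ± 0.09 by ordinary least squares. Without GCLC the other 3 genes of the second group averaged −0.92 at 800K. The groups were formed with these values known, so the contrast is a description. Over the range from 50K to 800K it was 2.06 without AKR1B10, 3.33 without AKR1C1 and 1.98 without the _x_at and _s_at sets, which takes out AKR1B10 as well.

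**Figure D2:**
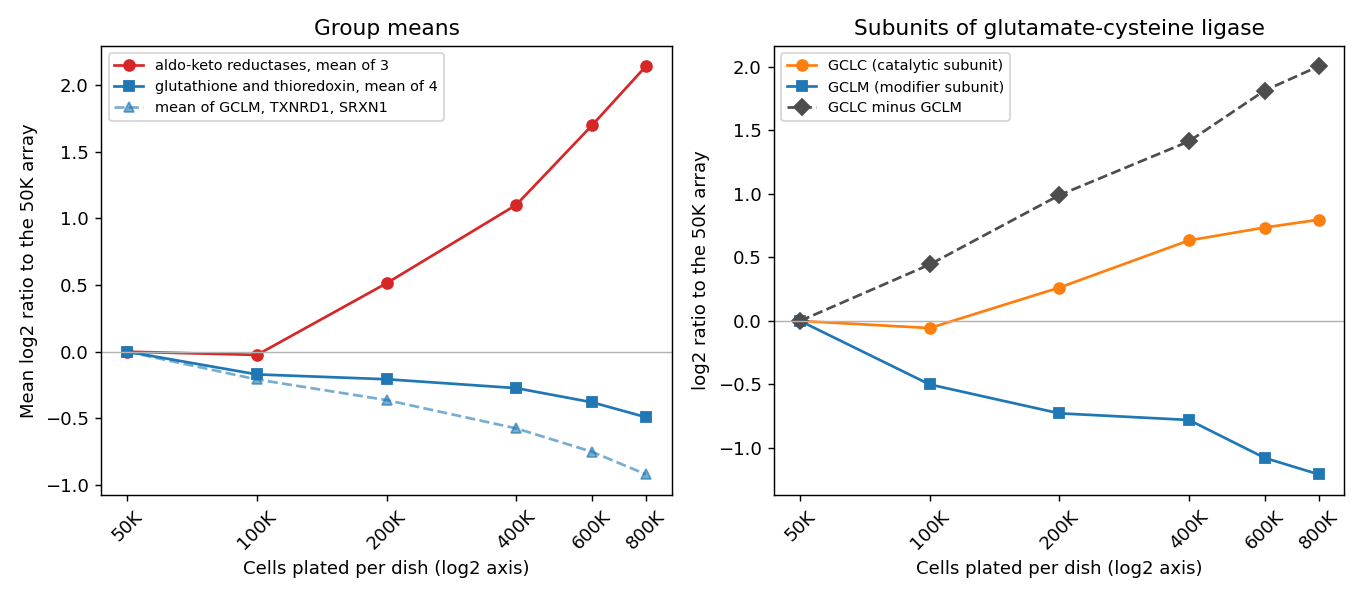
Left, the mean log2 ratio to the 50K array (vertical axis) of the 3 aldo-keto reductases, of the 4 glutathione and thioredoxin genes, and of these without GCLC, against the cells plated (log2 axis); right, the log2 ratios of GCLC and GCLM and their difference. The reductases reach 2.14 at 800K against −0.49 for the other group, and the difference of GCLC and GCLM reaches 2.00.

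The remaining members had smaller slopes. NQO1, a quinone reductase often used as a readout of NRF2, had a gene mean with ratios of 0.964, 0.757, 0.699, 0.790 and 0.723 from 100K to 800K. All 3 of its probe sets end in _s_at and were below 1 from 200K. The values at 200K to 800K were in no order, and the slope of −0.12 ± 0.03 lay past the threshold with all 6 arrays but not without any single array other than 200K, with a fitted log2 change between −0.56 and −0.43 over the arrays left out. FTL, the ferritin light chain, was measured by 2 sets that both end in _x_at. Its gene mean had ratios of 0.976, 0.820, 0.770, 0.719 and 0.768 from 100K to 800K. The slope of FTL was −0.12 ± 0.02, and it was not past the threshold without the 50K array, where the fitted log2 change was −0.50 against −0.48.

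HMOX1, the inducible heme oxygenase, did not keep to one direction. Its probe set had ratios of 1.22, 0.914, 0.686, 0.964 and 1.14 from 100K to 800K. The lowest value was at 400K, and the highest was at 100K. The slope was −0.04 ± 0.08, it was not past the threshold, and its sign turned without the 100K array (fitted log2 change 0.0077 against −0.16). A quadratic term in density did not pass for any gene in limma, 0 of 19775 after adjustment and 2496 at an unadjusted p under 0.05. Of the 10 members, 0 passed after adjustment and 4 had an unadjusted p under 0.05.

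As means over all their probe sets, none of NFE2L2, KEAP1 and BACH1 passed the threshold. NFE2L2 itself had ratios of 1.07, 1.04, 1.22, 1.14 and 1.12 from 100K to 800K (slope 0.05 ± 0.02, limma adjusted p = 0.138). With only its RefSeq mRNA probe sets, an alternative chosen after seeing the data, NFE2L2 did pass, with a fitted log2 change over the range of 0.59 against 0.20. KEAP1 had a ratio of 0.910 at 800K (slope −0.04 ± 0.02, limma adjusted p = 0.149), and BACH1 had one of 1.31 at 200K and 0.992 at 800K (slope −0.02 ± 0.05, limma adjusted p = 0.896). Among 8 genes measured of 9 in this list, none rose and only MAFG, a small MAF partner, fell, with a slope of −0.09 ± 0.02 (limma adjusted p = 0.0227), a call lost without 50K, 600K or 800K (adjusted p up to 0.160). These arrays measure RNA, whereas NRF2 is known to be set largely by protein stability.

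Across the 9 lists of other pathway genes, 17 of 79 measured genes rose, 7 fell and 55 did not pass, and their median slope was 0.03 against 0.00 over all genes. Among all genes 8.93% rose and 12.4% fell. The number that passed was 24 with all arrays, 14 without 100K, 11 without 600K and 11 without 800K. In the list of other glutathione genes, 5 of 14 rose and 2 fell. The glutathione transferases GSTA4 (slope 0.31 ± 0.06) and GSTP1 (0.18 ± 0.03), the glutaredoxin GLRX (0.30 ± 0.06) and the glutathione synthetase GSS (0.14 ± 0.03) rose, with limma adjusted p between 0.00699 and 0.0166. GSTA4 reached 2.62-fold and GLRX 2.26-fold its 50K value at 800K. Calls were lost for GSTA4 without any array but 200K or 400K (adjusted p up to 0.0588) and for GLRX without 800K, 600K or 100K (adjusted p up to 0.0643).

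SLC7A11, the cystine carrier that feeds glutathione synthesis and is named here after its values were seen, had a profile unlike that of either ligase subunit. Its ratios were 0.771, 0.551, 1.82, 1.14 and 0.353 from 100K to 800K, with a slope of −0.08 ± 0.22 (limma adjusted p = 0.868). The ATF4 response is a program of amino acid shortage that is also known to drive SLC7A11. Of 8 such genes 2 rose: asparagine synthetase ASNS, with ratios of 1.19, 1.24, 2.68, 3.49 and 2.82 from 100K to 800K (slope 0.46 ± 0.08, limma adjusted p = 0.00993), and the serine enzyme PSAT1, at 2.90 at 400K, 3.34 at 600K and 1.98 at 800K (slope 0.40 ± 0.11, limma adjusted p = 0.04998). The call of PSAT1 was lost without any array but 800K (adjusted p up to 0.151), and also with centred arrays, on the cell number or its rank, and with RefSeq mRNA probe sets. ASNS was not past the threshold without the _x_at and _s_at sets, where its fitted log2 change over the range was 0.21 against 1.86, and it was 3.51 with RefSeq mRNA probe sets. Without the _x_at and _s_at sets 0 genes of this list passed, and PSAT1 had no value there. The 6 genes of the list that did not pass with all sets were named after their values were seen, and each was highest at 400K. Their ratios there were 11.5 for CHAC1, 3.64 for SESN2, 3.35 for TRIB3, 1.89 for ATF4, 1.26 for DDIT3 and 1.11 for ATF3. At 800K the ratios were 2.09, 1.45, 1.41, 1.49, 1.03 and 0.776 in that order. SLC7A11 was also highest at 400K, and that density is a single array. Unlike most of these genes, SLC7A11 was below 1 at 800K, at 0.353. Whether the ATF4 response bears on SLC7A11 here was not tested.

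Around thioredoxin, 2 of 7 genes rose and 1 fell. TXNIP, the arrestin that binds and inhibits thioredoxin, had a ratio of 3.98 at 800K and rose (slope 0.58 ± 0.08, limma adjusted p = 0.00588), in the opposite direction to TXNRD1. All 3 probe sets of TXNIP end in _x_at or _s_at. The mitochondrial thioredoxin TXN2 rose by a slope of 0.11 ± 0.02 (limma adjusted p = 0.0220) and the peroxiredoxin PRDX1 fell, with a slope of −0.08 ± 0.02 (limma adjusted p = 0.0365). The TXN2 call was lost without 50K, 600K or 800K (adjusted p up to 0.156) and the PRDX1 call without any array but 50K (up to 0.129). Of 5 enzymes that make NADPH, the cofactor of the reductases, only the isocitrate dehydrogenase IDH1 rose, to 2.01-fold at 800K (slope 0.26 ± 0.03, limma adjusted p = 0.00557), and none fell.

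Among 10 other genes of quinone and carbonyl detoxification, 2 rose and 1 fell. The aldehyde dehydrogenase ALDH3A1 had ratios of 1.51, 2.13, 2.34, 3.38 and 3.91 from 100K to 800K (slope 0.46 ± 0.03, limma adjusted p = 0.00117). It was higher at every step, with 1.51 already at 100K, where AKR1B10 was at 1.01. The pirin gene PIR rose with a slope of 0.17 ± 0.04 (limma adjusted p = 0.0250, lost without 800K, 600K or 100K, adjusted p up to 0.101), and the UDP-glucose dehydrogenase UGDH fell with a slope of −0.09 ± 0.02 (limma adjusted p = 0.0237, lost without 800K, 400K or 50K, adjusted p up to 0.169). In the heme and iron list of 7 measured genes, the biliverdin reductase BLVRB rose, to 1.67-fold at 800K (slope 0.19 ± 0.03, limma adjusted p = 0.0134, lost without 100K or 800K, up to 0.0585). The constitutive heme oxygenase HMOX2 fell, to 0.624 of its 50K value (slope −0.19 ± 0.03, limma adjusted p = 0.00616).

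**Figure D3:**
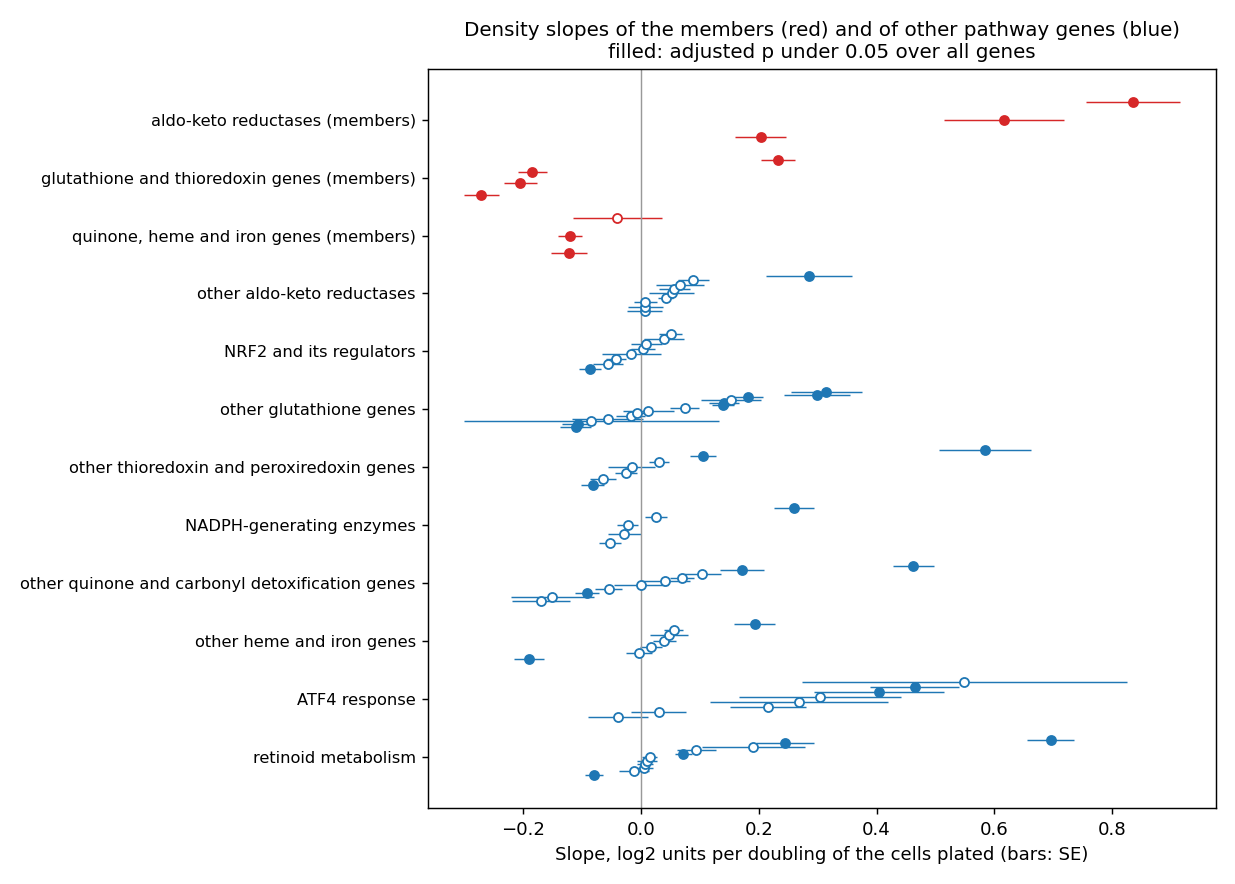
Slopes on density with their SE (horizontal axis, log2 units per doubling of the cells plated) are shown for the 10 members in red and for 79 other pathway genes in blue, by list; filled points lie past an adjusted p of 0.05 over all genes. AKR1B10 and AKR1C3 lie farthest to the right among the members, at 0.83 and 0.62, the genes around NRF2 lie close to 0, and CRABP2 at 0.70 is the highest of the other lists.

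Retinoid genes were examined because AKR1B10 reduces retinal to retinol. Of 11 measured, 3 rose and 1 fell. CRABP2, which carries retinoic acid to its receptor, had ratios of 1.61, 2.03, 3.87, 5.57 and 6.91 from 100K to 800K (slope 0.70 ± 0.04, limma adjusted p = 0.000683). DHRS3, which like AKR1B10 reduces retinal, rose with a slope of 0.24 ± 0.05 (limma adjusted p = 0.0191) and was highest at 400K, at 1.97. ALDH1A3, which oxidises retinal, rose by 0.07 ± 0.01 per doubling (limma adjusted p = 0.0199), and RDH10, which makes retinal from retinol, fell, with a slope of −0.08 ± 0.02 (limma adjusted p = 0.0177). These calls were lost for DHRS3 without 50K, 100K or 600K (adjusted p up to 0.0812), for ALDH1A3 without any array but 200K or 400K (up to 0.0905) and for RDH10 without 800K, 600K or 50K (adjusted p up to 0.115).

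The genes whose profiles lay nearest to those of the members were found by the Euclidean distance over the 5 log2 ratios from 100K to 800K. Nearest to AKR1B10 were the epithelial sodium channel subunit SCNN1B (distance 0.40 log2 units, 10.3-fold at 800K), AZGP1 (0.47, 9.04-fold) and the monoamine oxidase MAOA (0.50, 9.81-fold). Nearest to the mean of the 3 aldo-keto reductases were the water and glycerol channel AQP3 (0.24, 4.65-fold), SEMA4B (0.28, 4.43-fold) and CYP4X1 (0.28, 4.25-fold). The mean of the glutathione and thioredoxin genes lay nearest to MTMR9 (0.05), HIC2 (0.08) and HOMER1 (0.08), which were at 0.735, 0.710 and 0.679 at 800K. The profile of HMOX1 was nearest to FBXW4P1 (0.28), PRB3 (0.28) and RCOR2 (0.29), each lowest at 400K.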

How the data were processed

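MCF10A cells at 6 plating densities were measured on 1 array each, from 200 ng of total RNA extracted with phenol and chloroform, per the labels' protocols. RMA is named in the submitters' processing notes and no version is given. Every deposited value is a linear ratio, the probe set's value over that of the 50K array, whose own 54675 values all equal 1 within 1e-06. No source used here describes the division by that array or the scaling. How many dishes went into each array is not stated.

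The log2 of the ratio was averaged over the 41091 non-control probe sets with 1 symbol (1801 had several and 11777 were not listed), giving 19775 genes, with no filter on low values. Symbols were checked against the RefSeq gene table by gene ID, which held 41037 of the 41091, and 0 symbols changed. Slopes and quadratic terms in log2 of the cells plated were estimated by limma 3.58.1 (R 4.3.3), with two-sided p-values adjusted by Benjamini-Hochberg across the 19775 genes and a threshold of 0.05. Residuals mix variation between dishes, technical noise and departure from a line, and the p-values measure only that scatter. The procedure was tested on simulated data. The other 5 arrays had a median ratio of 1.013 to 1.036.

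The members and all lists were chosen with earlier results of these data known. Besides the members and NFE2L2, KEAP1 and BACH1, the genes named were up to 4 of each list that passed the threshold, never changed sign when an array was left out and had the steepest slopes, and the 3 nearest to each of 4 profiles. Marker genes of other cell types are named as lists require. SLC7A11 and the ATF4 response genes that did not pass are named outside this rule. Alternatives were other probe sets, array centring, other density scales, 3 against 3 densities and leaving out each array.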

Additional observations from a re-analysis of the deposited data

How the results depend on the processing

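Values here are fitted log2 changes from 50K to 800K unless a count is named. No paired analysis was possible because each density had 1 array. Over all genes, 4220 passed the density trend, 2664 without the _x_at and _s_at probe sets, 2259 for the 3 highest against the 3 lowest densities, and 2388 to 3909 with each array left out (2447 without 600K and 2388 without 800K). Of the other pathway genes 24 passed, 13 for 3 against 3 densities and 11 to 21 with each array left out. The count of members past the threshold was 9, and 6 to 9 under all alternatives. Without the _x_at and _s_at sets AKR1B10, NQO1 and FTL have no value. The same holds for MAFG, TXNIP, PIR and PSAT1 of the other pathway genes and for CDH1 and LAPTM5 of the markers. No call of AKR1B10, AKR1C3, GCLC, TXNRD1 or SRXN1 was lost under any alternative that gave a value. With only RefSeq mRNA probe sets, chosen after seeing the data, AKR1C1 was at 1.28 and not past the threshold, and it ranged from 0.65 to 1.13 with each array left out. For 3 against 3 densities the differences were −0.61 for GCLM, −0.29 for NQO1 and −0.30 for FTL, none past the threshold. On the cell number itself NQO1 was at −0.40 and FTL at −0.41, and on its rank NQO1 was at −0.47, also not past it. With each array left out NQO1 ranged from −0.56 to −0.43, FTL from −0.56 to −0.44 and HMOX1 from −0.45 to 0.0077, the last without 100K. The marker DCN was at −0.0084 without the _x_at and _s_at sets. The contrast of the aldo-keto reductases with the glutathione and thioredoxin genes was 2.63. It was 1.98 without the _x_at and _s_at sets, 3.22 with group medians, 3.33 without AKR1C1, and 2.30 to 3.23 with each array left out. Chosen after seeing the data, it was 3.05 with RefSeq mRNA probe sets, 3.08 without GCLC and 2.06 without AKR1B10. Among the other pathway genes named, AKR1C2, MAFG, GSTA4, TXN2, PRDX1, IDH1, UGDH, ALDH3A1, BLVRB, RDH10 and ALDH1A3 were not past the threshold for 3 against 3 densities. On the cell number itself IDH1, UGDH, DHRS3, RDH10 and PSAT1 were not past it, and on its rank PSAT1. With centred arrays AKR1C2 and PSAT1 were not past it, and with RefSeq mRNA probe sets RDH10 and PSAT1. Of the markers named, CDH1, KRT5, ITGA6, LAPTM5, PECAM1, KDR and DCN were not past it for 3 against 3 densities. KRT5, ITGA6 and DCN were not past it on the cell number, and ITGA6 and KDR with centred arrays. ITGA6 was also not past it on the rank or with RefSeq mRNA probe sets. Without the _x_at and _s_at sets ITGA6, KDR and DCN were not past it. The cause of these shifts was not tested. Centring the arrays changed the direction of no member. The curvature test passed 0 genes under every alternative run. No intensities were used, so signal over background is unknown.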
